A study of Mus musculus with 10 samples.

Results

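The expression of 8 genes that build, remodel and take up plasma lipoproteins was followed in the livers of lactating mice on diets of high or low glycaemic index: Pltp, Mttp, Lipc, Lcat, Scarb1, Lrp1, Vldlr and Lpl. The members were all array probe sets, groups of short probes that each read a transcript, whose annotation named exactly 1 of these symbols. In all, 18 of the 45037 probe sets tested were members, and they covered 7 of the 8 genes; Lipc, hepatic lipase, is not analysed here. The study took livers of QSi5 mice, an inbred strain, at the peak of lactation, with 1 array per mouse. From pregnancy onward 5 mice ate the high glycaemic index diet (HGI), 51.4% glucose by weight with 15.6 MJ of gross energy per kg, and 5 ate the low glycaemic index diet (LGI), 51.4% of a starch high in amylose with 16.3 MJ per kg. All 10 mice were lactating, so neither pregnancy nor lactation was itself compared. The labels give a positive energy balance to every HGI mouse and a negative one to every LGI mouse, so energy balance and diet cannot be told apart.

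The liver secretes triglyceride in very low density lipoproteins (VLDL), which the microsomal triglyceride transfer protein Mttp loads with lipid around apolipoprotein B. In plasma, lipases strip triglyceride from these particles, Pltp moves the released surface phospholipids to high density lipoproteins (HDL), and Lcat esterifies the cholesterol that HDL carries. The liver then takes up remnants through Lrp1 and other receptors of the LDL receptor family, and takes cholesteryl ester from HDL through Scarb1. In lactation much of the circulating triglyceride is drawn into the mammary gland by lipoprotein lipase, Lpl.

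Values are log2 expression, and differences are HGI minus LGI, so that a difference of 1 is a 2-fold change. The test was limma's moderated test over all 45037 probe sets with Benjamini-Hochberg adjustment, with the threshold at an adjusted p of 0.05. The 10 arrays correlated with each other at 0.986 to 0.996. HGI 1 had the narrowest spread of values (SD 2.16), and LGI 4 correlated least with the other arrays of its diet (mean 0.988). The 3′ minus 5′ log2 signal of control probe sets was highest in HGI 5 for Gapdh (0.99) and in LGI 4 for Actb (2.27). HGI minus LGI, these measures stood at -0.04 and -0.18 (two-sided exact permutation p = 0.762 and 0.421). Their part in the values of single arrays was not tested. Hepatocyte markers such as albumin and transthyretin were bright on every array, with a summed marker signal of 16.78 to 16.88 log2. At each gene's brightest probe set, all 12 markers of Kupffer cells and macrophages and all 12 of sinusoidal endothelial cells had differences above 0. Of these, 0 were past the threshold in limma's test and 1 and 3 had an unadjusted p under 0.05. Dimmer probe sets of the endothelial markers Clec4g and Dnase1l3 stood at -0.27 and -0.21 (limma adjusted p = 0.655 and 0.520). In bulk liver, more cells of a type and more RNA per cell cannot be told apart.

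Pltp rose in HGI, and the other members lay closer to 0. At 1 of its 2 probe sets Pltp was 2.14-fold higher (95% confidence interval 1.66 to 2.76), and this was the only member probe set past the threshold (1 of 18, where 0.0644% of all probe sets passed in either direction and 0.0377% as higher and 0.0266% as lower in HGI). The 2 probe sets of Pltp were also the only members at which the diets did not overlap, where 1.67% of all probe sets separated them. All 3 probe sets of Scarb1 lay below 0, at 1.24- to 1.26-fold lower, without passing. Of the 18, 7 had an unadjusted p under 0.05 (38.9%, against 7.54% of all probe sets), and these stood for 3 genes: 2 were higher and read Pltp, and 5 were lower and read Scarb1 and Vldlr. The sets compared differ in brightness: 74.5% of all probe sets were dim, with a mean log2 under 6, against 38.9% of members. All probe sets of Vldlr were dim. Members were also chosen with earlier results of these data known. Probe sets of 1 gene are not independent readings of the diet. The median difference was -0.10 over the 18 members and -0.02 over all probe sets. Of the members, 10 lay below 0 and 8 above, close to the 55.8% of all probe sets below 0.

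**Figure D1:**
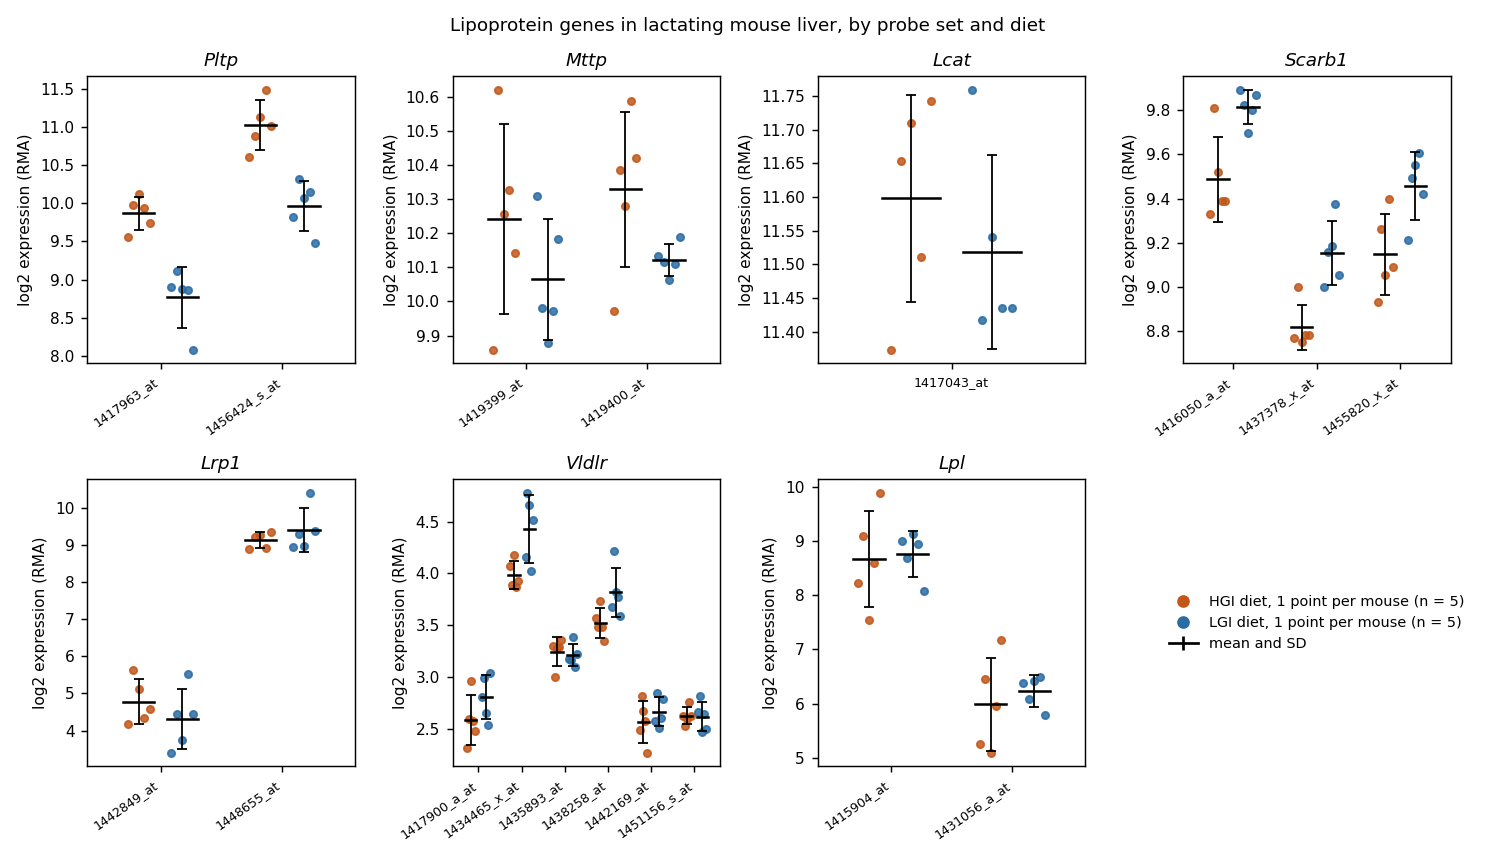
Log2 expression of each member probe set (y axis, scale set per gene) in every mouse, with HGI in orange and LGI in blue, n = 5 mice per diet; black bars show the mean and SD. The diets separate at both Pltp probe sets, where the lowest HGI values are 9.56 and 10.60 and the highest LGI values 9.12 and 10.32, and they overlap at the other 16.

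Pltp, the phospholipid transfer protein, exchanges phospholipids between lipoproteins and enlarges HDL particles. Probe set 1417963_at read 9.56, 9.97, 10.11, 9.94 and 9.74 log2 in HGI mice 1 to 5. In LGI mice 1 to 5 it read 8.90, 9.12, 8.88, 8.86 and 8.08. Every HGI mouse lay above every LGI mouse, and LGI 5 lay well under the other LGI mice. The means were 9.87 ± 0.22 in HGI and 8.77 ± 0.40 in LGI (SD, n = 5 each), a difference of 1.10 ± 0.17 (SE; limma adjusted p = 0.0433). Without LGI 5 the difference was 0.93 and still passed (limma adjusted p = 0.0471). The adjusted p lay close to the threshold: it also passed without HGI 1 or without LGI 4 (limma adjusted p = 0.0465 and 0.0496), and with any of the other 7 arrays left out it lay between 0.0602 and 0.122, with differences from 1.04 to 1.18. With the arrays centred on their medians it did not pass (limma adjusted p = 0.0561).

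The other Pltp probe set, 1456424_s_at, is the brighter of the pair. It read 10.60, 10.87, 11.13, 11.49 and 11.02 in HGI mice 1 to 5. It read 9.82, 10.32, 10.07, 10.15 and 9.48 in LGI mice 1 to 5. Again the diets did not overlap, and LGI 5 was the lowest mouse, as at the first probe set. The difference was 1.05 ± 0.17 (SE), or 2.08-fold (95% confidence interval 1.60 to 2.69), and it lay just outside the threshold (limma adjusted p = 0.0550). At each probe set the unadjusted two-sided exact permutation p was 0.00794, the smallest that 5 against 5 arrays can give.

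Pltp is shown with the 250 bases before its annotated start, since it is the only member that passed. The stretch lies on the minus strand at chr2:164857709-164857958 (GRCm38.p6, RefSeq) and is written 5′ to 3′, with GC boxes, the motif GGGCGG or its reverse complement CCGCCC, in capitals.
Pltp: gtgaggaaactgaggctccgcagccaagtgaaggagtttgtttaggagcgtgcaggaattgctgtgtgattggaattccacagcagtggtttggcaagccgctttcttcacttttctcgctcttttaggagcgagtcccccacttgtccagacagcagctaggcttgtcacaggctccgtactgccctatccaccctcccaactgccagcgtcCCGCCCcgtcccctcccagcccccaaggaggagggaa
The window is 57.6% G or C and holds 1 GC box, whose first base lies 37 bases before the start. Of 32851 windows of the same length before annotated mouse starts, 32.7% hold at least 1. Searched on both strands, the nuclear receptor half-site AGGTCA, the E-box CACGTG and the TATA box TATAAA are not in this window, and 14%, 6.02% and 12.4% of all windows hold them. These are matches of letters and not measured sites.

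Genes whose deviations from the diet means followed those of Pltp most closely over the 10 arrays differed between its probe sets. At 1417963_at they were Rsu1, Rnf34 and Pigs (Pearson r = 0.89 each), and at 1456424_s_at Gpatch1, Bicd2 and Ik (Pearson r = 0.94, 0.93 and 0.93). They are the highest of 10507 probe sets compared, share the arrays and their scaling with Pltp, and are given as a description. Their own diet differences lay between -0.13 and 0.15, and 0 of the 6 passed.

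The summed signals of Kupffer, endothelial and erythroid markers lay in the same direction as Pltp, at 0.28, 0.29 and 1.11. This was not particular to them. The adipocyte, stellate cell and lymphocyte sums stood at 0.66, 0.16 and 0.14, and those of hepatocytes and cholangiocytes at 0.02 and -0.0013. The brightest adipocyte marker was Fabp4, at 1.08, while the median difference of the 6 measured adipocyte markers was -0.0094. The summed signal of the 12 Kupffer cell and macrophage markers spanned 11.52 to 12.30 log2 in HGI and 11.24 to 12.02 in LGI. That of the 12 endothelial markers spanned 10.57 to 11.15 and 10.38 to 10.93. That of the 5 measured erythroid markers spanned 9.27 to 10.45 and 8.27 to 9.57. All 5 had differences above 0 at their brightest probe sets, with Hba-a1 below the array median. Those of Hba-a1, Klf1 and Epor were small, at 0.02, 0.08 and 0.09 (limma adjusted p = 0.982, 0.940 and 0.927). Slc4a1, the anion exchanger of red cells, was the only gene in any marker list to pass, at 1 of its 3 probe sets. At 1434502_x_at it was 6.33 ± 0.92 in HGI and 3.75 ± 0.07 in LGI (SD, n = 5 each), a difference of 2.57 (limma adjusted p = 0.0211). The LGI values there, 3.68 to 3.83, lay below the array medians of 3.91 to 3.97, so the size of this difference is uncertain. At its brightest probe set, 1416464_at, the difference was 2.25 (limma adjusted p = 0.0625), and at the dim 1431743_a_at it was -0.0056 (limma adjusted p = 0.997). The diets did not overlap at 1434502_x_at and 1416464_at, as at Pltp, and the differences there were larger than those of Pltp. Alas2, the heme synthesis enzyme of red cell precursors, stood at 1.34 with overlapping diets (limma adjusted p = 0.262). The part of these cells in the Pltp values was not tested.

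**Figure D2:**
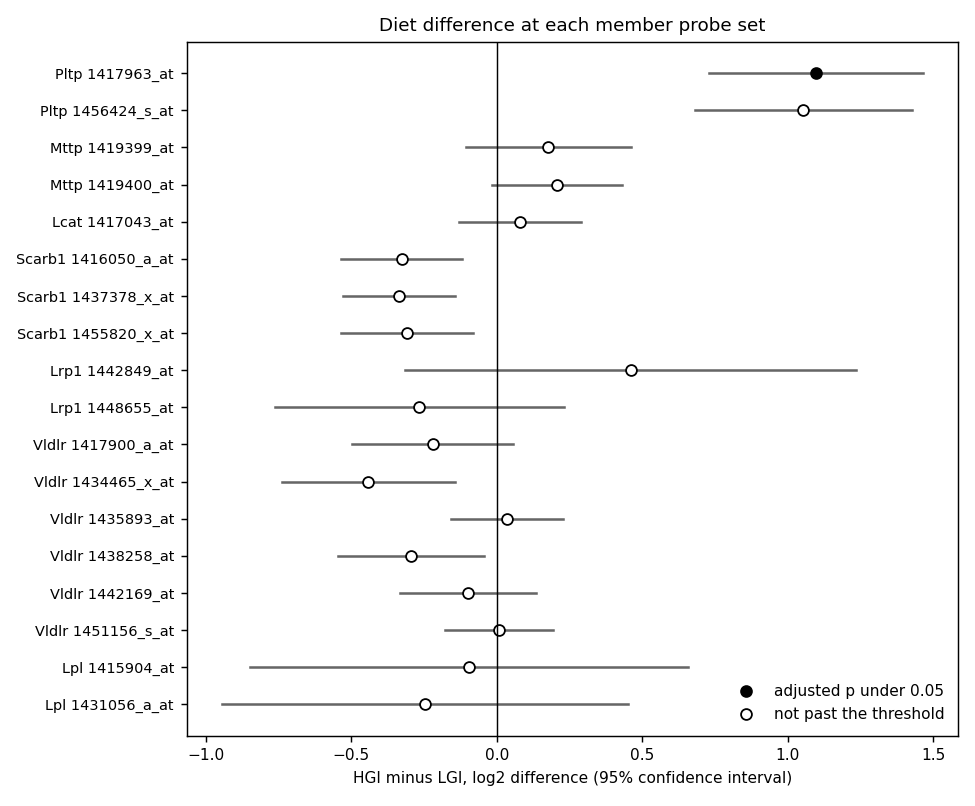
HGI minus LGI difference on the log2 scale (x axis) at each of the 18 member probe sets (rows), with 95% confidence intervals from limma; filled points have an adjusted p under 0.05. Both Pltp points lie above 1, all 3 Scarb1 intervals lie below 0 without passing the adjusted threshold, and the Lpl and Lrp1 intervals are the widest.

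Lcat, the plasma enzyme that esterifies cholesterol on HDL, was read by 1 bright probe set. It read 11.37, 11.65, 11.71, 11.51 and 11.74 log2 in HGI mice 1 to 5 and 11.76, 11.42, 11.54, 11.44 and 11.44 in LGI mice 1 to 5. Both the highest LGI mouse and the lowest HGI mouse lay outside the other diet's range. The difference was 0.08, with a 95% confidence interval of -0.13 to 0.29 (limma adjusted p = 0.913). The interval of the change therefore ended at 1.22-fold higher in HGI, below the lower bound of 1.66-fold at Pltp 1417963_at; the difference between the genes was not tested.

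Mttp, which loads lipid onto nascent apolipoprotein B particles, had differences above 0 at both probe sets, without passing. Probe set 1419400_at read 9.97, 10.39, 10.28, 10.59 and 10.42 log2 in HGI mice 1 to 5 and 10.13, 10.12, 10.06, 10.11 and 10.19 in LGI mice 1 to 5. Of the HGI mice, 4 lay above every LGI mouse and HGI 1 lay below all of them. The difference was 0.21, with a 95% confidence interval of -0.02 to 0.43 (limma adjusted p = 0.700), and it was 0.30 without HGI 1 (limma adjusted p = 0.299). The LGI mice lay close together, with an SD of 0.05 against 0.23 in HGI. At the other probe set, 1419399_at, values ran from 9.86 to 10.62 in HGI and from 9.88 to 10.31 in LGI, with a difference of 0.18 (limma adjusted p = 0.825). HGI 1 was the lowest HGI mouse at both.

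Lpl, the lipase that frees fatty acids from circulating triglyceride, varied more between mice than between diets. Adult hepatocytes make little of it, and macrophages and adipocytes are known to make it. Probe set 1415904_at read 8.22, 9.10, 7.55, 8.60 and 9.90 log2 in HGI mice 1 to 5. In LGI mice 1 to 5 it read 9.01, 8.68, 9.13, 8.96 and 8.07. HGI mice held both the highest value, HGI 5, and the lowest, HGI 3. The SD was 0.89 in HGI and 0.42 in LGI, and the difference was -0.10, with a 95% confidence interval of -0.85 to 0.66 (limma adjusted p = 0.976). It turned to 0.19 without HGI 3 and to 0.02 without HGI 1. The dimmer probe set, 1431056_a_at, placed HGI 5 (7.17) and HGI 3 (5.08) at the same ends, and its difference was -0.25 (limma adjusted p = 0.920). The interval at 1415904_at left room for changes from 1.80-fold lower to 1.58-fold higher in HGI, so a change of the size seen at Mttp or Scarb1 was not detectable here.

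HGI 5, the mouse with the most Lpl, had the highest summed signal of all 10 arrays in 7 of the 8 marker lists: Kupffer (12.30), endothelial (11.15), stellate cell and fibroblast (11.71), adipocyte (9.03), erythroid (10.45), cholangiocyte (7.03) and lymphocyte (8.12). In the remaining list, that of hepatocytes, it was the lowest HGI mouse (16.85). HGI 3, with the least Lpl, had the lowest sum of the HGI mice for the Kupffer, endothelial, stellate, adipocyte and cholangiocyte lists (11.52, 10.57, 10.99, 7.78 and 6.29). It was not the lowest for the erythroid list (10.19, second to HGI 5) or the lymphocyte list (7.93). Among LGI mice, LGI 4 had the highest Kupffer sum (12.02) and a middling Lpl (8.96). Of the 6 measured adipocyte markers, Adipoq, Lep and Cidec lay below the array median, and 3 of the 6 had differences above 0. The largest of these was that of Fabp4, at 1.08 at its brightest probe set (limma adjusted p = 0.276). Fabp4 was also the brightest of the 6, and the median difference of the 6 was -0.0094. The part of these cells in the Lpl values was not tested.

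**Figure D3:**
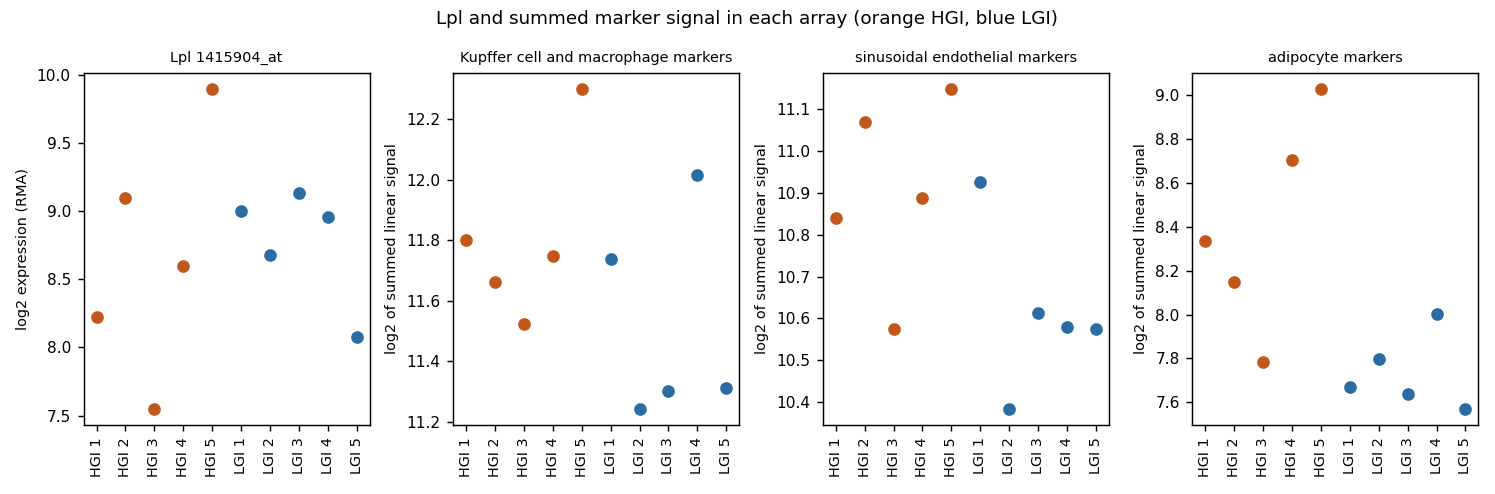
Lpl log2 expression (left) and the log2 of the summed linear signal of marker lists for Kupffer cells and macrophages, sinusoidal endothelial cells and adipocytes (y axes) in each of the 10 arrays (x axis), with HGI in orange and LGI in blue. HGI 5 is the highest array in all 4 panels, at 9.90 for Lpl and 12.30 for Kupffer markers, and HGI 3 is the lowest HGI array in each.

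Scarb1 encodes SR-BI, the HDL receptor of hepatocytes, which takes up cholesteryl ester without degrading the particle. Its 3 probe sets lay below 0 by nearly the same amount, and 0 passed the adjusted threshold in limma's test, though all 3 had an unadjusted p under 0.05. Probe set 1437378_x_at read 8.77, 9.00, 8.75, 8.78 and 8.78 log2 in HGI mice 1 to 5. In LGI mice 1 to 5 it read 9.00, 9.16, 9.19, 9.37 and 9.05. Of the HGI mice, 4 lay below every LGI mouse, and HGI 2 met the lowest of them, LGI 1. The difference was -0.34 ± 0.09 (SE), or 1.26-fold lower with a 95% confidence interval of 1.11 to 1.44 (limma adjusted p = 0.303).

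At 1416050_a_at Scarb1 read 9.33, 9.81, 9.52, 9.39 and 9.39 in HGI mice 1 to 5 and 9.89, 9.82, 9.69, 9.80 and 9.87 in LGI mice 1 to 5. The difference there was -0.33 (limma adjusted p = 0.395), and without HGI 2, the only HGI mouse inside the LGI range, it was -0.41. At 1455820_x_at values ran from 8.93 to 9.40 in HGI and from 9.21 to 9.60 in LGI, and the difference was -0.31 (limma adjusted p = 0.495). The exact two-sided permutation p-values of the 3, unadjusted, were 0.0159, 0.0238 and 0.0317 in the order given. Left out in turn, no single array moved the 3 differences outside -0.41 to -0.25. The suffix _x_at marks sets in which some probes match other transcripts too. Slc4a1 1434502_x_at, Vldlr 1434465_x_at and Apoa4 1436504_x_at are among the other sets that carry it. Both Scarb1 sets that carry it gave diet differences like that of 1416050_a_at. From mouse to mouse they followed it less closely. Their deviations from the diet means correlated with those of 1416050_a_at at 0.32 (1437378_x_at) and 0.07 (1455820_x_at), and with each other at 0.64 (Pearson r, 10 arrays).

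Lrp1, the large receptor that clears remnants in hepatocytes and other cells, gave opposite signs at its probe sets. The bright one, 1448655_at, read 8.89, 9.22, 9.28, 8.92 and 9.36 log2 in HGI mice 1 to 5 and 8.94, 9.29, 8.97, 10.41 and 9.39 in LGI mice 1 to 5. LGI 4 lay 1.03 above the next LGI mouse. The difference was -0.27 (limma adjusted p = 0.860) and became -0.01 without LGI 4 (limma adjusted p = 0.991). The dim one, 1442849_at, ran from 4.17 to 5.64 in HGI and from 3.39 to 5.52 in LGI, where LGI 4 was again the highest mouse. Its difference was 0.46, with a 95% confidence interval of -0.32 to 1.24 (limma adjusted p = 0.834), and 0.76 without LGI 4 (limma adjusted p = 0.562).

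**Figure D4:**
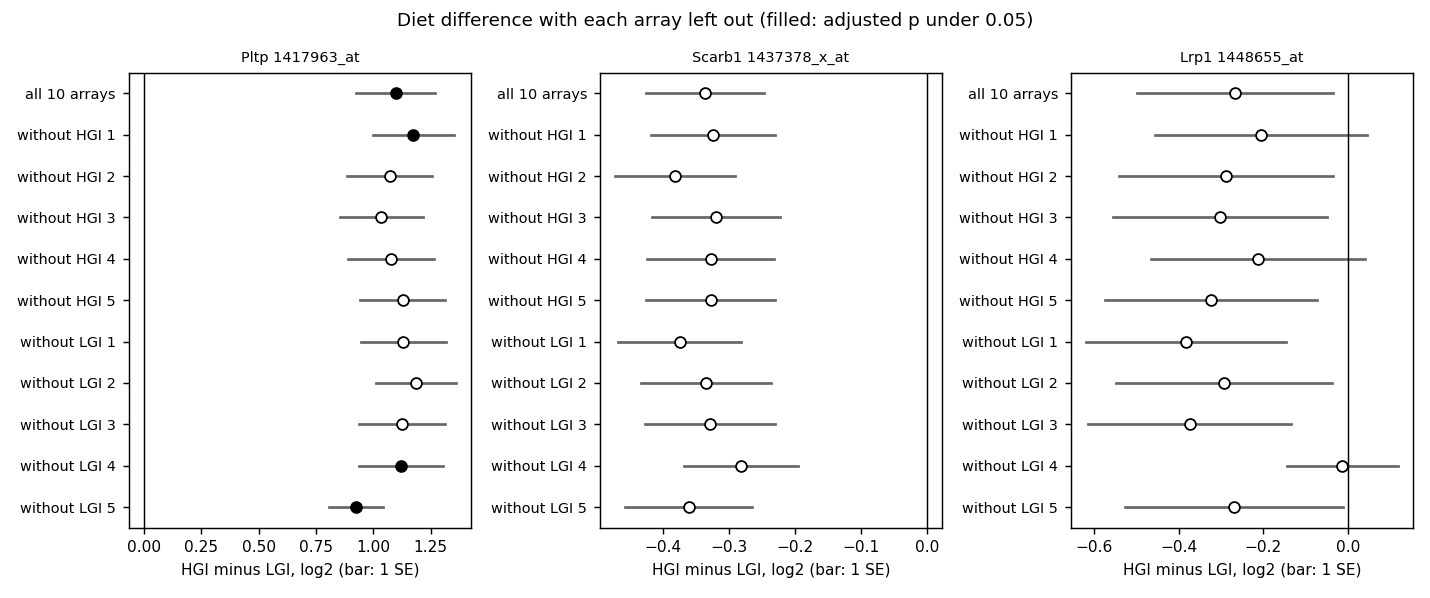
HGI minus LGI difference on the log2 scale (x axis, bars of 1 SE) for Pltp, Scarb1 and Lrp1 with all 10 arrays and with each array left out (rows); filled points have an adjusted p under 0.05. Pltp stays between 0.93 and 1.18, Scarb1 between -0.38 and -0.28, and Lrp1 moves from -0.27 to -0.01 without LGI 4.

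Vldlr, a receptor for triglyceride-rich particles found mainly in heart, muscle and fat, was dim in these livers. Of its 6 probe sets, 4 were under the array median on all 10 arrays, and 1438258_at exceeded it on 1. The brightest, 1434465_x_at, read 4.07, 3.89, 4.18, 3.87 and 3.93 log2 in HGI mice 1 to 5 and 4.16, 4.78, 4.66, 4.02 and 4.51 in LGI mice 1 to 5, against array medians of 3.91 to 3.97. The diets overlapped, with 3 HGI mice below every LGI mouse. The difference was -0.44 ± 0.14 (SE; limma adjusted p = 0.443), and that of 1438258_at was -0.29 (limma adjusted p = 0.573). The other 4 lay between -0.22 and 0.03, with limma adjusted p-values from 0.753 to 0.993. Signals this close to the background give uncertain sizes, so no fold is given for Vldlr.

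Genes that work with the members were read from 6 lists: assembly and secretion, apolipoproteins, lipases with their cofactors and inhibitors, cholesterol efflux and HDL, receptors with their endocytosis partners, and transcription factors. Of 89 listed genes, 79 had 161 probe sets. Past the threshold, 2 of these rose, both of Apoa4, 0 fell, and 159 did not pass. At an unadjusted p under 0.05, 11 were higher (6.83%, against 2.76% of all probe sets) and 10 lower (6.21%, against 4.78%). Probe sets of the same gene recur in these counts, those of Lrpap1, Apoa4 and Pdzk1ip1 among the higher and those of Cd36 among the lower. They are not independent readings, and the lists were not matched to all probe sets in brightness. The median difference over the 161 was -0.02, as over all probe sets. Apoa4, an apolipoprotein of chylomicrons, VLDL and HDL, read 12.79, 12.94, 12.94, 13.28 and 13.31 log2 at 1417761_at in HGI mice 1 to 5 and 11.94, 12.29, 12.03, 11.69 and 11.89 in LGI mice 1 to 5. The diets did not overlap, and the difference was 1.08 ± 0.13 (SE; limma adjusted p = 0.0126). Without LGI 5 neither Apoa4 probe set passed, and without HGI 4, HGI 5 or LGI 3 only 1417761_at did.

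Of the genes that act on uptake, Lrpap1 had differences above 0 at every probe set. It encodes the receptor-associated protein, a chaperone that keeps Lrp1 and its relatives from binding ligands before they reach the cell surface. Its 4 probe sets stood at 0.69, 0.63, 0.52 and 0.39, with limma adjusted p-values of 0.154, 0.105, 0.319 and 0.329. The brightest, 1436609_a_at, read 9.95, 10.30, 10.42, 10.34 and 10.21 log2 in HGI mice 1 to 5 and 9.70, 9.67, 9.93, 9.31 and 9.48 in LGI mice 1 to 5. The diets did not overlap there, and at the other 3 probe sets 4 HGI mice lay above every LGI mouse. It passed when the arrays were quantile normalized again (limma adjusted p = 0.0289) and without both HGI 1 and LGI 4 (limma adjusted p = 0.0486), which was chosen after seeing the data. Of the 30 probe sets in this list, 0 passed in limma's test. At an unadjusted p under 0.05, 4 were higher (13.3%, against 2.76% of all probe sets), all of Lrpap1. In the other direction 1 was lower (3.33%, against 4.78%). It read Sdc1, a heparan sulfate proteoglycan that binds remnants (-0.36, limma adjusted p = 0.647).

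The largest difference below 0 in the 6 lists was that of Lipg. This gene encodes endothelial lipase, which hydrolyses HDL phospholipid, and it stood at -1.08 at 1450188_s_at (4.22 ± 0.41 in HGI against 5.30 ± 0.64 in LGI, SD, n = 5 each; limma adjusted p = 0.270) and at -0.78 at its brightest probe set (limma adjusted p = 0.655). The probe set 1450188_s_at was itself dim, with a mean of 4.76 log2 over the 10 arrays, so the size of its difference is uncertain. The dimmest Lipg probe set was at 0.08, below the array medians. The diets overlapped at each Lipg probe set, and Angptl8, an inhibitor of lipoprotein lipase, stood at -0.34 (limma adjusted p = 0.908). Of the 28 probe sets of this list 0 passed in limma's test. At an unadjusted p under 0.05, 1 was higher (3.57%, against 2.76% of all probe sets) and 2 lower (7.14%, against 4.78%).

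In the efflux and HDL list 0 of 14 probe sets passed the threshold in limma's test. At an unadjusted p under 0.05, 3 were higher (21.4%, against 2.76% of all probe sets) and 4 lower (28.6%, against 4.78%). The largest differences lay in opposite directions. Abcg5, a sterol exporter into bile, stood at -0.73 (8.14 ± 0.62 against 8.87 ± 0.20, SD, n = 5 each, limma adjusted p = 0.459). The other lower probe sets were all those of Cd36, at -0.41, -0.35 and -0.57 (limma adjusted p = 0.575, 0.523 and 0.136). The diets did not overlap at the last of these, which had the lowest p in the list. Pdzk1ip1, a small membrane protein that binds Pdzk1, the scaffold of SR-BI, stood at 0.69 and 0.59 (limma adjusted p = 0.459 and 0.237), and the diets did not overlap at the latter. The remaining higher probe set was that of Pdzk1, at 0.30 (limma adjusted p = 0.661). In the apolipoprotein list 2 of 21 probe sets rose and 0 fell in limma's test. At an unadjusted p under 0.05, the same 2 were higher (9.52%, against 2.76% of all probe sets) and 0 lower (against 4.78%). The next largest differences after Apoa4 were those of Saa4, an HDL apolipoprotein. They were -0.68 and -0.74 (limma adjusted p = 0.721 and 0.752), and -0.24 and -0.25 without LGI 4.

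In the assembly list 0 of 38 passed in limma's test. At an unadjusted p under 0.05, 2 were lower (5.26%, against 4.78% of all probe sets) and 0 higher (against 2.76%). Mia3, which helps large cargo leave the endoplasmic reticulum, ranged from -0.34 to -0.07 over 4 probe sets. Apob itself stood at 0.03 at its brighter probe set (12.75 ± 0.16 against 12.72 ± 0.03, SD, n = 5 each; limma adjusted p = 0.969) and at -0.31 at the other (limma adjusted p = 0.896). Among 30 probe sets of transcription factors, 0 passed in limma's test. At an unadjusted p under 0.05, 1 was higher (3.33%, against 2.76% of all probe sets) and 1 lower (3.33%, against 4.78%). Creb3l3, a hepatic factor that acts on apolipoprotein genes, stood at -0.40 (limma adjusted p = 0.551), and Hnf4a ranged from -0.11 to 0.36 over 4 probe sets.

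**Figure D5:**
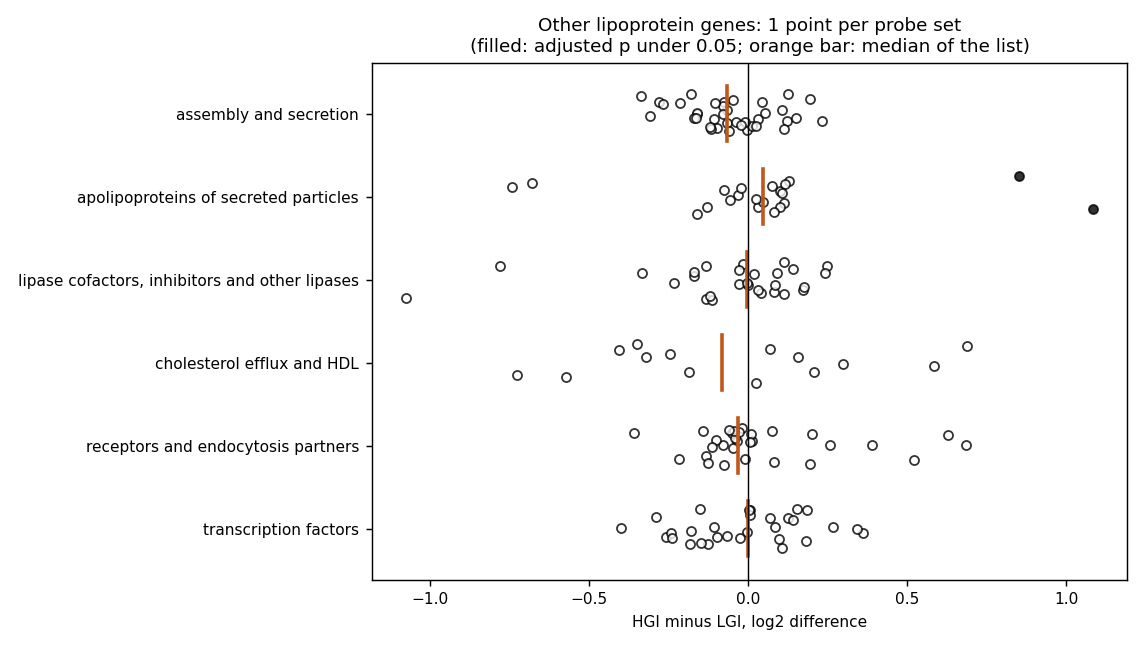
HGI minus LGI difference on the log2 scale (x axis) of the 161 probe sets of other lipoprotein genes, 1 point each, by list (rows); filled points have an adjusted p under 0.05 and orange bars mark each list's median. Only the 2 Apoa4 points, at 0.85 and 1.08, are filled, and the medians lie between -0.08 and 0.05.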

How the data were processed

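Liver RNA of 10 mice was read on expression arrays, and the authors' deposited values are log2 expression per probe set. Per the submitters' processing notes, the tools were RMA and R 2.6.1 (genome build: not given in the sources used here). RMA scales arrays to a shared distribution, so values are relative to the whole array. Of 45101 probe sets, 64 controls were left out. Names came from the platform annotation, updated through RefSeq gene IDs (GRCm38.p6). The diets were compared in limma 3.58.1 (R 4.3.3) without covariates or a filter on dim signals, and tested on simulated data. The number of arrays limits the precision. Members and lists were chosen with earlier results of these data known. All member probe sets are described. Of other genes, those past the threshold are, with, per list, the 2 of largest difference at a mean log2 of at least 6. Cd36 and Pdzk1 were added to these for their unadjusted p-values under 0.05. Marker sums take each gene's brightest probe set. Same-numbered mice did not deviate together (correlations of -0.13 to 0.04) and were not paired. Alternatives were 2 scalings, 2 filters, a variance trend, array weights, 1 probe set per gene, the replicate block and leaving out arrays.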

Additional observations from a re-analysis of the deposited data

Results flagged for a closer look

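In 96 sets of 5 values, 1 diet at 1 probe set each, 8 had an array far from the other 4 by Dixon's test, where chance gives 4.8. For the members, Pltp 1417963_at read 8.08 in LGI 5, against 8.86 to 9.12 in the other LGI mice. Scarb1 1437378_x_at read 9.00 in HGI 2, against 8.75 to 8.78 in the other HGI mice. Vldlr 1435893_at, a dim probe set, read 3.00 in HGI 2, against 3.28 to 3.36. Of the other genes, Saa4 read 13.24 in LGI 4 at 1419318_at, against 10.95 to 11.11, and 11.27 at 1419319_at, against 8.43 to 9.15. At 1419319_at it read 7.76 in HGI 5, against 8.56 to 8.83. The dim probe sets Mia3 1459070_at and Lipg 1421261_at read 4.59 in LGI 1, against 4.27 to 4.36, and 3.83 in HGI 4, against 3.33 to 3.47.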

How the results depend on the processing

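Of 18 member probe sets 1 passed. The count was 2 under quantile normalization again, the filters at a mean log2 of 6 and at the median signal, the variance trend with robust fitting, array weights, the replicate block and without both HGI 1 and LGI 4, 0 under median centring, and 0 to 2 with single arrays left out. Those that passed were Pltp's. Pltp 1417963_at lost its call under median centring (1.10, adjusted p = 0.0561), and its range was 0.93 to 1.18 with single arrays left out. Pltp 1456424_s_at gained one under quantile normalization (1.12), both filters, the variance trend, 1 probe set per gene and the replicate block (1.05 each), array weights (1.09) and without HGI 1 and LGI 4 (1.20), and ran from 0.93 to 1.16 with single arrays left out. Over all probe sets 29 passed, 17 higher and 12 lower, against 63 (quantile normalization), 17 (median centring, 13 higher and 4 lower), 64 (array weights), 58 (without both arrays), and 5 to 49 with single arrays left out. For the other lipoprotein genes 2 passed, against 4 under quantile normalization and without both arrays (Apoa4 and Lrpap1), 1 with 1 probe set per gene or the replicate block, and 0 to 2 with single arrays left out. The sign turned without both arrays at Lpl 1415904_at (0.064), Lrp1 1448655_at (0.047) and Vldlr 1435893_at (-0.0057). With single arrays left out Lpl 1415904_at ran from -0.40 to 0.19 and Vldlr 1451156_s_at from -0.029 to 0.059. No other member changed sign or side of the threshold. Apart from the filters and 1 probe set per gene, which test fewer probe sets, the cause was not tested. Of the 5 HGI arrays, 0 correlated best with the LGI array of its own number. The pair HGI 1 and LGI 4 was chosen after seeing the data. Dim signals limit Vldlr and the dim Lrp1 probe set.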
